A study of Mus musculus with 36 samples.

Results

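The MMP, ADAMTS and TIMP genes were taken as every protein-coding gene whose Gencode symbol begins with Mmp, Adamts or Timp followed by a number. This gave 45 genes, 22 of the MMP, 19 of the ADAMTS and 4 of the TIMP family, among 21805 protein-coding genes and 54115 genes in all. The ADAMTS-like genes, which lack the protease domain, fell outside the rule, and so did Mmp1a, which the annotation lists as a polymorphic pseudogene. RNA-seq was read for 36 libraries of 4 sources. Bulk melanomas came from 6 dKO mice (1 female and 5 male) and 6 WT mice (4 female and 2 male), in 3 library batches of 2 dKO and 2 WT libraries. CD8+ T cells and cancer-associated fibroblasts (CAFs) sorted from tumours came from 4 dKO and 4 WT mice each, with 2 females and 2 males per genotype. Mice of the CD8+ T cell experiment were 9 weeks old at induction and mice of the CAF experiment 10 weeks old. Immortalized dermal fibroblasts (iDFs), all male and derived from skin without tumours, were starved for 24 h in 0.5% serum and collected at 0 min or after 30 min of 10% serum, with 2 dKO and 2 WT libraries at each time.

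The dKO mice carried constitutive null alleles of H2afy and H2afy2, the genes of the histone variants macroH2A1 and macroH2A2, in every cell, so tumour cells and stroma both lacked them. All tumour-bearing mice, WT and dKO, carried Tyr-CreERT2, in which a melanocyte promoter drives an inducible recombinase, together with Braf CA alleles, on a mixed background that was mostly 129S. Topical 4-hydroxytamoxifen on the back switched on mutant Braf in melanocytes, and tumours were collected at day 50. CAFs were sorted on CD140a, the product of Pdgfra. The labels do not say whether the 2 iDF libraries of a group came from separate cultures, so p-values in iDFs measure only the spread between these libraries, which may be technical. The number of mice or cell lines behind each iDF genotype is not given, so genotype and line cannot be told apart in iDFs.

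Matrix metalloproteinases (MMPs) are zinc-dependent enzymes that cut collagens and other proteins of the extracellular matrix. Most are secreted as inactive precursors, and some, such as the product of Mmp14, stay on the cell membrane and activate others. ADAMTS enzymes are secreted relatives that cleave proteoglycans such as aggrecan and versican or trim the ends of procollagens. TIMPs are small secreted proteins that block the active site of MMPs, and TIMP3 also inhibits ADAMTS enzymes. In tumours, fibroblasts and myeloid cells are known sources of these enzymes.

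Reads assigned to genes ran from 17526681 to 85432438 per library. Pdgfra stood at 485 to 611 CPM (the read count scaled to library size) in dKO CAFs and 327 to 603 CPM in WT CAFs, and Cd8a at 538 to 684 CPM in dKO and 479 to 837 CPM in WT CD8+ T cells. In CAFs, Cd3e and Cd8a had no reads in any dKO library and at most 0.0482 CPM in a WT library. The 7 fibroblast markers summed to 66.9 to 2127 CPM in dKO and 2.08 to 1050.2 CPM in WT CD8+ T cell libraries. Among bulk melanomas, dKO 6 stood apart with 30757 CPM of fibroblast markers. H2afy retained reads in every dKO library. It was lower without overlap in dKO bulk melanomas (61.2 to 82.4 CPM, against 90.5 to 122 CPM in WT) and in dKO iDFs, and its ranges overlapped between genotypes in CAFs (dKO 48.7 to 55.3 CPM, WT 51.8 to 60.7 CPM) and CD8+ T cells. H2afy2 was lower without overlap in dKO CAFs, at 10.7 to 14.4 CPM against 17.1 to 24.9 CPM in WT CAFs. A gene's summed reads do not show which part of it an allele removes, so the genotypes rest on the labels.

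Levels across cell sources were compared first, in WT libraries and as TPM, a unit that divides reads by transcript length and library total and so allows genes to be set side by side. CAFs had the highest median of 29 of the 39 genes that reached 1 TPM in some source, and for 25 of these the CAF libraries lay clear of every other source. These are counts without a share of all genes beside them, so they do not show a trait particular to these families. The summed TPM of the MMP family was 2725 ± 115 in CAFs (SD, n = 4), 932 ± 99.8 in bulk melanomas (n = 6), 762 ± 0.151 in starved iDFs (n = 2) and 33.4 ± 28.1 in CD8+ T cells (n = 4). The ADAMTS sum was 1159 ± 75.7 TPM in CAFs, 292 ± 52.4 in bulk melanomas, 393 ± 16 in iDFs and 57.9 ± 11.3 in CD8+ T cells. The TIMP sum was 2197 ± 622 TPM in CAFs, 620 ± 102 in bulk melanomas, 788 ± 0.435 in iDFs and 40.4 ± 44 in CD8+ T cells. The sums rested on few genes. Mmp14, Mmp2 and Mmp3 held 77.2% of the MMP sum in CAFs, and Timp1, Timp2 and Timp3 held 99.98% of the TIMP sum.

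**Figure D1:**
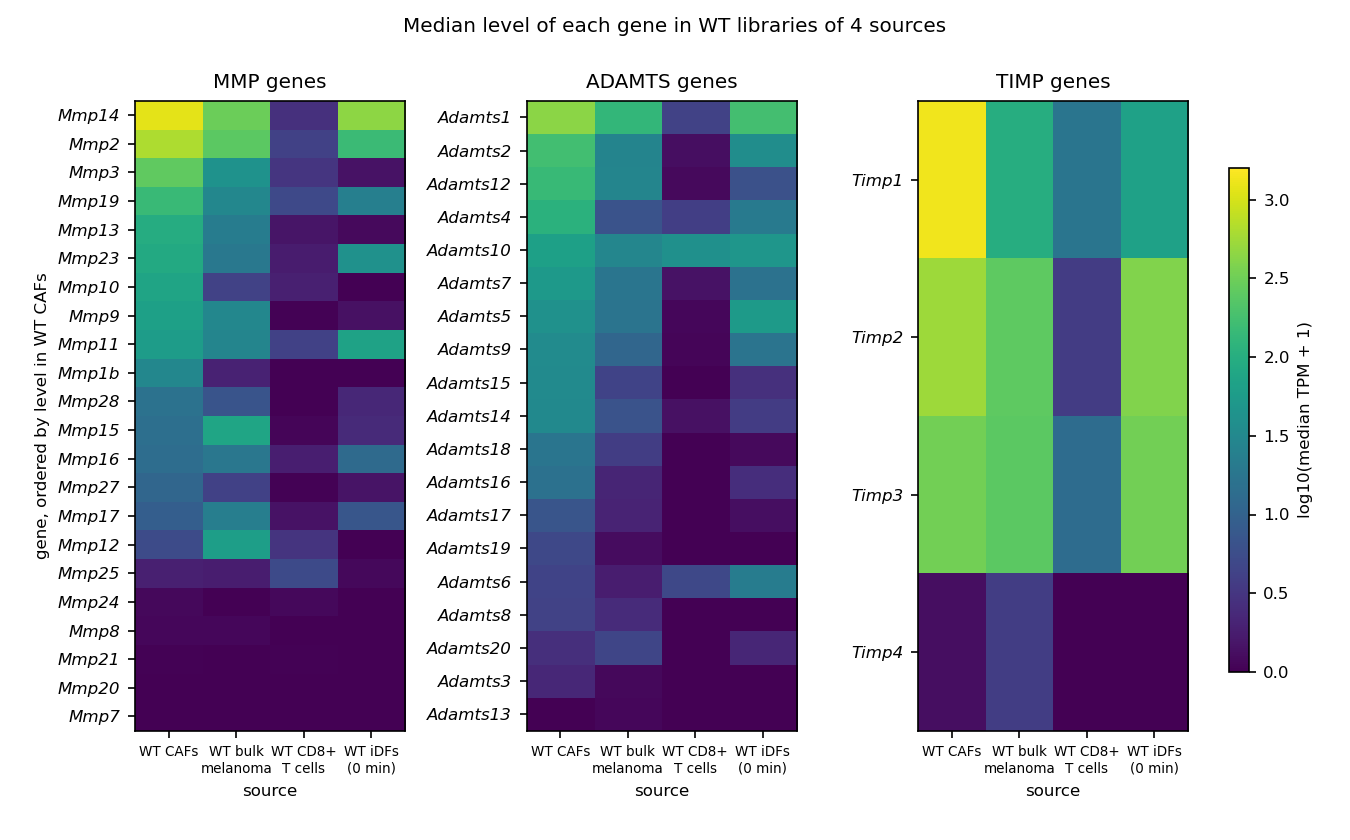
Median level of every MMP, ADAMTS and TIMP gene in WT libraries, with sources along the x axis (4 CAF, 6 bulk melanoma, 4 CD8+ T cell and 2 starved iDF libraries) and genes down the y axis, coloured by log10(median TPM + 1). CAFs are the brightest column for most genes, while Mmp12, Mmp15 and Mmp17 are brightest in bulk melanomas, Mmp25 in CD8+ T cells and Adamts6 in iDFs.

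Among the proteases, Mmp14, the membrane-bound collagenase that activates the Mmp2 precursor, was the most abundant. It stood at 1041, 1177 and 1267 TPM (lowest, median, highest) in WT CAFs, 453 and 458 in WT iDFs, 272, 304 and 385 in WT bulk melanomas, and 0.808, 1.78 and 6.38 in WT CD8+ T cells. Mmp2, a gelatinase, followed with 516, 635 and 864 TPM in CAFs, 173, 248 and 409 in bulk melanomas, 151 and 154 in iDFs and at most 5.7 in CD8+ T cells. The bulk and iDF ranges of Mmp2 lay next to each other with a gap of 173 against 154 TPM, well inside the spread of the bulk libraries.

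Of the inhibitors, Timp1 was the most abundant in CAFs, at 740.4, 1338 and 1805 TPM, against 70.9, 97.7 and 289 TPM in bulk melanomas, 64.1 and 69.8 in iDFs, and 0.958, 16.8 and 57.3 in CD8+ T cells. Timp2 was more even among fibroblasts and tumours, with 489.8, 543 and 579 TPM in CAFs, 389 and 401 in iDFs, 152, 252 and 283 in bulk melanomas and 1.44, 2.7 and 3.46 in CD8+ T cells. Timp3, the matrix-bound inhibitor, overlapped between CAFs and both iDFs and bulk melanomas, while both iDF libraries lay above every bulk melanoma. Its values were 215, 328 and 541 TPM in CAFs, 323 and 329 in iDFs, and 210.3, 249 and 282 in bulk melanomas, against 0, 12.5 and 34.6 in CD8+ T cells. Timp4 was low everywhere and had its highest median, 2.81 TPM, in bulk melanomas.

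Called hereafter means an adjusted p under 0.05 in edgeR's quasi-likelihood test with Benjamini-Hochberg adjustment over all genes tested, and a log2 fold change beyond 0.75 in either direction. Against WT bulk melanomas, WT CAFs were called higher for 28 and lower for 6 of 41 genes tested, where 36.5% of all genes were called in either direction, and the median log2 fold change was 1.94 (all genes, -0.11). Against CD8+ T cells, 35 were called higher and 2 lower of 41, beside 70.2% of all genes, with a median of 6.11 (all genes, 0.16). Against starved iDFs, 28 were called higher and 1 lower of 41, beside 33% of all genes, with a median of 3.40 (all genes, 0.10). These comparisons share the CAF libraries, and each sets 1 experiment against another, so source and experiment cannot be told apart. In bulk tissue, fewer cells of a type and less RNA per cell cannot be told apart either.

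Several genes outside the rule for named genes were described after their values were seen, since they go against the CAF pattern. Mmp12, the macrophage elastase, had 1.97, 4.38 and 6.72 TPM in WT CAFs against 14.7, 60.9 and 96.2 TPM in WT bulk melanomas (log2 fold change of CAFs over bulk -4.33, SE 1.11). Mmp15, a membrane-type MMP, had 11.5, 13.9 and 15.1 TPM in WT CAFs against 29.5, 75 and 119 TPM in WT bulk melanomas (-2.44, SE 0.38). Both were called lower in CAFs. Mmp25, a membrane-anchored MMP known from leukocytes, had 0.65, 0.886 and 0.953 TPM in WT CAFs against 2.22, 4.21 and 8.62 TPM in WT CD8+ T cells, its highest source (log2 fold change of CAFs over CD8+ T cells -2.70, SE 0.42).

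Adamts10, which binds fibrillin microfibrils, was the only protease of these families above 10 TPM in every CD8+ T cell library, with 61.3, 64.4 and 80.8 TPM in WT CAFs against 36.7, 39.8 and 44.5 TPM in WT CD8+ T cells, a difference that was not called (0.60). Adamts6, its nearest relative in the family, was called lower in CAFs than in iDFs, at 2.85, 3.41 and 5.2 TPM in WT CAFs against 19.6 and 22 in WT iDFs (-2.10, SE 0.33). Mmp3 and Mmp13 also differed widely between CAFs and iDFs. Mmp3, stromelysin 1, stood at 218, 258 and 371 TPM in WT CAFs against 0.349 and 0.529 in WT iDFs (log2 fold change 9.63), and Mmp13, collagenase 3, at 67.1, 96 and 113 TPM in WT CAFs against 0.17 and 0.248 in WT iDFs (9.10).

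In CAFs, the comparison of dKO with WT asked whether loss of macroH2A altered these genes in the cell type that expressed most of them. Of 39 genes tested, 5 were called lower in dKO CAFs and 0 higher, beside 5.48% of all genes called. The calls over all genes also leaned down, with 229 higher and 636 lower, so the direction is not particular to these families. The 5 were Mmp1b, the collagenase gene Mmp13, the stromelysin gene Mmp10, Mmp11 and the inhibitor gene Timp1. The split differed by family. Of 17 MMP genes tested, 3 had a positive log2 fold change and the median was -0.23, of 18 ADAMTS genes 9 were positive with a median of 0.02, and the median over all genes tested was 0.00. At an unadjusted p under 0.05, 7 of the 39 were higher and 8 lower, beside 26% of all genes. DESeq2 called 0 higher and 6 lower, Adamts6 in addition to the same 5, beside 7.64% of all genes (346 higher and 860 lower).

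Mmp1b had 6.42 and 4.05 CPM in the male and 0.531 and 0.944 CPM in the female dKO CAF libraries, against 31.3 and 39.4 CPM in the male and 6.8 and 11.6 CPM in the female WT CAF libraries. The genotypes did not overlap, and within each genotype both females lay below both males. The log2 fold change was -3.09 (SE 0.30, edgeR adjusted p = 0.00139, n = 4 each).

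Mmp10, stromelysin 2, which can activate other MMP precursors, had 23.1 and 38 CPM in male and 3.02 and 7.24 CPM in female dKO libraries, against 109.7 and 96.1 CPM in male and 23.2 and 32.7 CPM in female WT libraries. The genotypes overlapped across sexes and were separate within each sex. The log2 fold change was -2.06 (SE 0.30, edgeR adjusted p = 0.00785). The log2 ratio of dKO over WT means was -3.64 in females and -2.76 in males for Mmp1b, and -2.45 in females and -1.75 in males for Mmp10.

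Mmp13 had 25.8, 81.7, 41.8 and 13.4 CPM in dKO libraries 1 to 4, against 159, 165, 129.8 and 94.3 CPM in WT libraries 1 to 4. Every dKO library lay below every WT library, with dKO 2 nearest to them (log2 fold change -1.80, SE 0.44, edgeR adjusted p = 0.0454). Mmp11, stromelysin 3, is activated inside the cell and is known from tumour stroma. It had 19.3, 23.1, 35.5 and 22.2 CPM in dKO against 70.1, 35.7, 91.4 and 46.6 CPM in WT libraries, separated only narrowly at dKO 3 and WT 2 (-1.29, SE 0.29, adjusted p = 0.0349).

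Timp1, the inhibitor with the highest TPM in WT CAFs, had 204, 481, 78.4 and 119 CPM in dKO against 609, 641, 376 and 253 CPM in WT libraries 1 to 4. The genotypes overlapped at dKO 2 and were separate within each sex (log2 fold change -1.27, SE 0.32, edgeR adjusted p = 0.0498, just inside the threshold). The other inhibitors were not called. Timp2 had 1028, 998, 1175 and 1131 CPM in dKO against 1002, 854, 952 and 929.9 CPM in WT libraries (0.21, SE 0.09, adjusted p = 0.174). Timp3 had 2490.3, 1805, 675 and 1137 CPM in dKO against 968, 1365, 571 and 714 CPM in WT libraries (0.69, SE 0.21, adjusted p = 0.0866), with log2 ratios of means of 0.50 in females and 0.88 in males. Timp4 stayed at or under 1.03 CPM in every CAF library.

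Adamts4, an aggrecanase, had the smallest p of the genes with a positive fold change. Its values were 471, 408, 395 and 452 CPM in dKO against 331, 278, 181 and 252 CPM in WT libraries, with no overlap. Its adjusted p was 0.0193 and its log2 fold change of 0.75 (SE 0.15) lay just under the fold threshold before rounding, so it was not called. Without WT 1, WT 4 or dKO 2 it passed both thresholds (log2 fold change 0.84, 0.80 and 0.84, adjusted p = 0.0293, 0.0466 and 0.0212). Adamts10 had 155, 136, 202 and 191 CPM in dKO against 129.8, 127, 141 and 159 CPM in WT libraries (0.29, SE 0.08, adjusted p = 0.0617). Mmp17, Adamts1 and Adamts6 are given here after their values were seen. Mmp17, a membrane-anchored MMP, had 19.8, 16.1, 20.2 and 18.4 CPM in dKO against 30.2, 31.3, 30.3 and 24.5 CPM in WT, with an adjusted p of 0.0117 and a log2 fold change of -0.64, under the fold threshold. Adamts1, an aggrecanase and versicanase, had 1541, 1307, 1357 and 1347 CPM in dKO against 1096, 1249.7, 829 and 1054 CPM in WT (0.40, adjusted p = 0.0694), and Adamts6 had 5.44 to 8.49 CPM in dKO against 8.8 to 19.7 CPM in WT (-0.90, adjusted p = 0.0679). In all, 2 genes were higher and 5 lower without overlap between the genotypes, beside 14% of all genes tested.

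**Figure D2:**
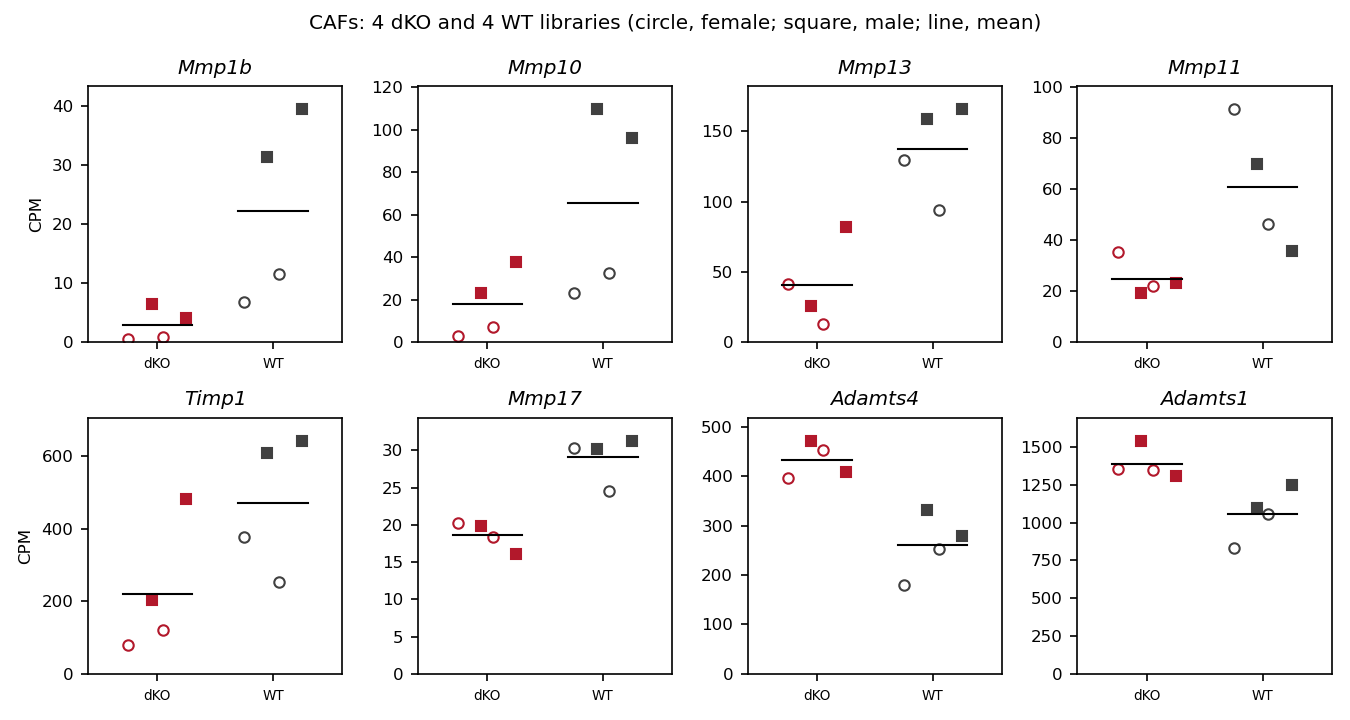
CPM (y axis, from 0) of 8 genes in single CAF libraries, 4 dKO in red on the left and 4 WT in dark grey on the right of each panel (x axis), with females as open circles, males as filled squares and the group mean as a line. Mmp1b, Mmp13, Mmp11 and Mmp17 lie lower in every dKO library than in any WT library, Adamts4 and Adamts1 lie higher, and Mmp10 and Timp1 separate within each sex.

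The 2 most abundant proteases of CAFs did not pass the test. Mmp14 had 1426, 1312, 1662 and 1412 CPM in dKO against 1812, 1571, 1492 and 1632 CPM in WT libraries (-0.16, SE 0.11, adjusted p = 0.382), and Mmp2 had 2062, 1464, 1237 and 1399 CPM in dKO against 997, 844, 1462 and 1073 CPM in WT (0.50, SE 0.22, adjusted p = 0.2). The MMP sum was accordingly 2586 ± 258 TPM in dKO CAFs and 2725 ± 115 TPM in WT CAFs (SD, n = 4 each), a difference within the spread between libraries.

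Limits of the CAF calls were as follows. Mmp1b and Mmp10 were called whichever of the 8 libraries was left out (adjusted p 0.00218 to 0.00836 and 0.00486 to 0.0296). Timp1 and Mmp13 were each called in 1 of these 8 fits, that without dKO 2 (adjusted p = 0.00645 and 0.025), and had adjusted p up to 0.118 and 0.112 in the other 7. Mmp11 was called without WT 2, WT 4 or dKO 3 (adjusted p 0.0325 to 0.0459) and not without WT 1, WT 3, dKO 1, dKO 2 or dKO 4 (0.0644 to 0.0967). A model without sex called 0 of the 39 genes, with adjusted p of 0.0968 for Mmp1b, 0.23 for Mmp10, 0.0628 for Mmp11, 0.0935 for Mmp13 and 0.313 for Timp1.

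Markers of some other cell types differed between the genotypes in the sorted CAFs, and others overlapped. The 5 keratinocyte markers summed to 16.4, 8.63, 25.2 and 34 CPM in dKO against 37.5, 45.8, 60.6 and 68.5 CPM in WT libraries, with 3 of 5 called lower. The 7 melanocyte markers summed to 425, 321, 113 and 208 CPM in dKO against 461, 653, 529 and 455 CPM in WT libraries, with 1 of 7 called lower. The 8 macrophage markers summed to 8.86 to 26.5 CPM in dKO and 13.8 to 27.7 CPM in WT libraries, with 0 of 7 tested positive and a median log2 fold change of -0.40. The 7 fibroblast markers summed to 59848 to 72484 CPM in dKO and 48199 to 59483 CPM in WT, without overlap, with 6 of 7 positive and a median of 0.27. The pericyte markers summed to 29.9 to 63.8 CPM in dKO and 18.4 to 83.8 CPM in WT, with 3 of 3 positive and a median of 0.34. The endothelial markers summed to 134 to 302 CPM in dKO and 170 to 374.5 CPM in WT, with 1 of 4 positive and a median of -0.59. None of the macrophage, fibroblast, pericyte or endothelial markers was called. The part of these differences in the fall of the MMP genes and Timp1 was not tested.

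Of the 5 called genes, 3 (Mmp13, Mmp1b and Mmp10) lie in a single MMP cluster on chromosome 9 (GRCm38), where 9 of the 22 MMP genes fill 427072 bases between 7272514 and 7699585 in the order Mmp13, Mmp12, Mmp1b, Mmp3, Mmp10, Mmp8, Mmp27, Mmp20 and Mmp7. The other tested genes of the cluster, Mmp3, Mmp12 and Mmp27, also had negative log2 fold changes in CAFs, smaller in size, and none was called. Mmp3 had 93.4, 576, 204 and 75.4 CPM in dKO against 209, 226, 358 and 248 CPM in WT CAFs (log2 fold change -0.25, SE 0.65), with dKO 2 above every WT library. Mmp12 (-0.48) and Mmp27 (-0.47) were tested and not called, and Mmp8, Mmp20 and Mmp7 were too low to test in CAFs. Mmp1b shares 1261 bases of its gene body with Mmp12 on the opposite strand, Timp1 lies wholly within the body of Syn1 on the opposite strand of chromosome X, and Mmp11 overlaps Chchd10. Timp3 lies within the body of Syn3, and Adamts4, Adamts9 and Adamts16 also overlap genes on the opposite strand. The study prepared its bulk, CAF and iDF libraries with directional kits, and no source used here states whether the mapping used strand. These overlaps are of whole gene bodies, introns included. Whether overlapping genes share reads of their transcripts was not tested.

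The promoters of the cluster were read because genes of this cluster are textbook targets of AP-1, the Fos and Jun dimers. RefSeq promoters (250 bases before to 50 after the listed start) were searched for 31 of the 45 genes. Adamts19 was among those not searched, and the wider set of genes may not have been limited in the same way. The AP-1 motif TGACTCA, or its reverse complement TGAGTCA, which marks the same site read on the other strand, occurred in 6 of these 31 (19.4%) and in 1607 of 27025 genes with a promoter (5.95%). All 6 were in the chromosome 9 cluster, whose 9 genes all had a listed promoter: Mmp13, Mmp12, Mmp1b, Mmp3, Mmp10 and Mmp7, the sites of Mmp12 and Mmp7 in 1 of their 2 listed promoters. The 110 bases before the start are shown for the 3 genes called lower in dKO CAFs, for Mmp3, which has the motif and was not called, and for Mmp8 and Mmp27, which lack it, with the motif in capitals (RefSeq, GRCm38.p6, 5′ to 3′ on the gene's own strand).
Mmp13 (chr9:7272404-7272513, plus strand): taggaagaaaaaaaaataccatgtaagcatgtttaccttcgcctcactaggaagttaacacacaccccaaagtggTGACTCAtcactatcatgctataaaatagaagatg
Mmp1b (chr9:7388027-7388136, minus strand): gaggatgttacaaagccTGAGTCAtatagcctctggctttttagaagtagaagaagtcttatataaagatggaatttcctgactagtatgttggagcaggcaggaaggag
Mmp10 (chr9:7502232-7502341, plus strand): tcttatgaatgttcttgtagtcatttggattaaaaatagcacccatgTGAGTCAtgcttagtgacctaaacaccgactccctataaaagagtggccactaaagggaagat
Mmp3 (chr9:7445712-7445821, plus strand): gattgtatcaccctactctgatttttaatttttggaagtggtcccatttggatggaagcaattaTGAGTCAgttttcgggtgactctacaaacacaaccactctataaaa
Mmp8 (chr9:7558319-7558428, plus strand): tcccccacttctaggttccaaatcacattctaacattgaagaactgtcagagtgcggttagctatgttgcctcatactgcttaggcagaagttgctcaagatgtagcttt
Mmp27 (chr9:7571286-7571395, plus strand): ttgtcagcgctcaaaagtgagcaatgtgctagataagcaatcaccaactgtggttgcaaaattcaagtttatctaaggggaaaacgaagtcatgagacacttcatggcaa

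The motif began 35 bases before the start in Mmp13, 46 in Mmp3, 63 in Mmp10 and 93 in Mmp1b. A match describes these letters in this window and not binding. Of 9 AP-1 and ETS factor genes, 1 was called higher in dKO CAFs, Fosl2 (0.79), beside 5.48% of all genes called. The log2 fold change was positive for 8 of the 9 with a median of 0.35, against 50.4% positive over all genes, and a link with the motif was not tested. Their summed level was 17066 to 20213 CPM in dKO against 11731 to 15542 CPM in WT CAFs.

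In whole tumours, 0 of 40 genes tested were called between dKO and WT by edgeR, beside 0.0442% of all genes. At an unadjusted p under 0.05, 6 were higher and 1 lower, beside 7.52% of all genes, and DESeq2 called 3 higher (Adamts5, Mmp3 and Mmp8) and 0 lower, beside 1.05% of all genes. The log2 fold change was positive for 30 of the 40 with a median of 0.11, against 53.2% positive and a median of 0.02 over all genes. Marker lists of several cell types also leaned with the genotype, and none of their genes was called. The log2 fold change was positive for 6 of 7 fibroblast markers (median 0.23), 8 of 8 macrophage markers (0.15) and 6 of 7 melanocyte markers (0.35), and for 0 of 5 skeletal muscle (-1.37), 0 of 5 keratinocyte (-0.29) and 2 of 6 T cell markers (-0.26). Their part in the values of these genes was not tested. In all 3 batches, 12 of the 40 were higher and 2 lower in dKO, a count without a share of all genes beside it. Batch 3 held only female WT and male dKO melanomas, so its ratios cannot tell genotype from sex. Batch 2 held no female dKO melanoma. Without overlap between the genotypes, 2 were higher (Adamts5 and Mmp8) and 0 lower, beside 0.669% of all genes.

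Adamts5, the other main aggrecanase gene, had 202, 237 and 334 CPM (lowest, median, highest) in dKO melanomas against 110.4, 154 and 171 CPM in WT melanomas, with no overlap (log2 fold change 0.96, SE 0.17, edgeR adjusted p = 0.134). The log2 ratio of means was 1.32, 0.47 and 0.59 in batches 1, 2 and 3, and 1.09 in females and 0.91 in males. Mmp3 had 38.8, 82.8 and 290.4 CPM in dKO against 31.7, 54.3 and 60 CPM in WT (1.65, SE 0.32, adjusted p = 0.195), with 5 of 6 dKO melanomas above every WT melanoma. The highest value belonged to dKO 5, the only female dKO melanoma, and without it the log2 fold change of Mmp3 was 1.2 and that of Adamts5 0.96.

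Among genes with a negative fold change, Mmp11 and Mmp27 had the smallest p. Mmp11 had 12.7, 32.6 and 43.5 CPM in dKO against 20.7, 34 and 50.2 CPM in WT melanomas (-0.71, SE 0.31, adjusted p = 0.643), and Mmp27 had 1.51, 2.22 and 6.9 CPM in dKO against 1.99, 4.23 and 5.84 CPM in WT (-0.62, SE 0.33, adjusted p = 0.705). Without dKO 5 these values were -0.35 for Mmp11 and -0.17 for Mmp27. Both groups overlapped over most of their range for both genes.

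Mmp8, Mmp19, Adamts4 and Adamts1 were added after their values were seen. Mmp8, the collagenase known from neutrophils, had only 314 reads over 6 dKO melanomas and 81 over 6 WT melanomas, with 0.561, 0.732 and 3.87 CPM in dKO against 0, 0.306 and 0.442 CPM in WT (log2 fold change 3.07, SE 0.70, adjusted p = 0.327). The 9 neutrophil markers summed to 32.5 to 486 CPM in dKO against 79.7 to 836 CPM in WT melanomas. In the fit, 4 of the 5 tested were positive with a median log2 fold change of 0.42, and 0 were called. Among dKO melanomas their sum was highest in dKO 5, and their part in the Mmp8 values was not tested. The dKO 5 melanoma was the highest of the 12 for Mmp3, Mmp8, Mmp19, Adamts4 and Adamts1. Mmp19 had 78.3 to 209 CPM in dKO against 52.7 to 90.9 CPM in WT (0.76, adjusted p = 0.477).

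**Figure D3:**
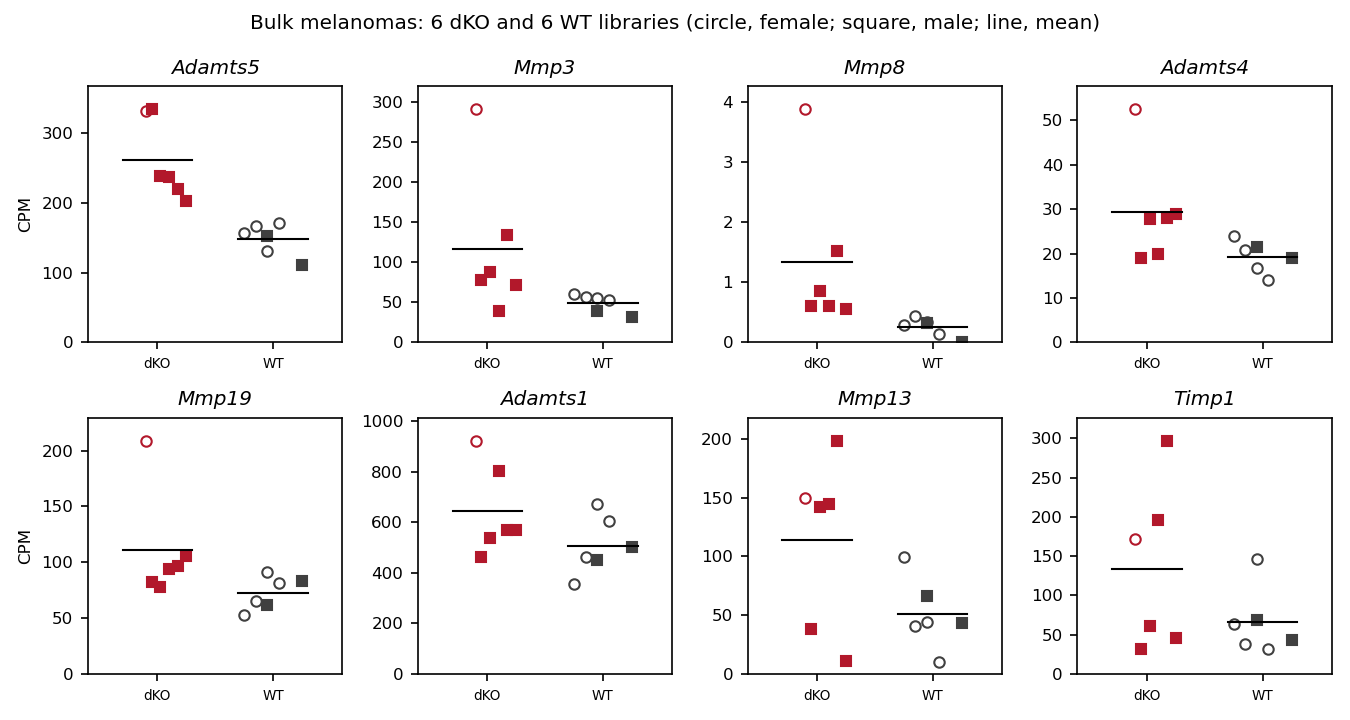
CPM (y axis, from 0) of 8 genes in single bulk melanomas, 6 dKO in red on the left and 6 WT in dark grey on the right of each panel (x axis), with females as open circles, males as filled squares and the group mean as a line. Adamts5 and Mmp8 separate the genotypes, the single dKO female is the highest point for Mmp3, Mmp8, Adamts4, Mmp19 and Adamts1, and Mmp13 and Timp1 overlap widely.

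Of the 5 genes that fell in CAFs, 4 had a positive log2 fold change in whole tumours, and none of these 4 passed the test. Mmp13 had 11.1, 143 and 198 CPM in dKO against 10.3, 43.9 and 99.4 CPM in WT melanomas (1.13, SE 0.79, adjusted p = 0.767). Its batch ratios were 0.40, 0.52 and 2.65 on the log2 scale, and the last batch held only female WT and male dKO melanomas. Mmp10 had 0.461, 10.3 and 29.2 CPM in dKO against 0.349, 4.32 and 9.94 CPM in WT (1.44, SE 1.01, adjusted p = 0.767). Mmp1b averaged 1.82 ± 1.78 CPM in dKO and 1.08 ± 0.97 CPM in WT melanomas (0.88, SE 1.19, adjusted p = 0.88). Timp1 had 31.7, 116 and 297 CPM in dKO against 32.1, 53.6 and 147 CPM in WT (0.88, SE 0.53, adjusted p = 0.742), with batch ratios of 0.92, -0.02 and 1.46. Timp2 (0.11, SE 0.19), Timp3 (-0.12, SE 0.15) and Timp4 (-0.55, SE 0.36) were not called. Timp2 averaged 814 ± 164 CPM in dKO and 717 ± 139 CPM in WT, Timp3 1022 ± 241 CPM in dKO and 967 ± 96.7 CPM in WT, and Timp4 6.5 ± 2.1 CPM in dKO and 8.91 ± 3.86 CPM in WT melanomas (SD, n = 6 each). Mmp14 averaged 667 ± 102 CPM in dKO and 588 ± 100.2 CPM in WT melanomas (0.04, SE 0.12) and Mmp2 489.7 ± 105 CPM in dKO and 404 ± 96.6 CPM in WT (0.21, SE 0.20).

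Of the 39 genes tested in both bulk melanomas and CAFs, 16 had the same sign, 19 were positive in bulk and negative in CAFs and 4 the reverse. These are counts without a share of all genes beside them. With 30 of 40 positive in bulk melanomas and 14 of 39 in CAFs, many opposite signs can arise from these leans alone. The difference between these comparisons was not tested.

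**Figure D4:**
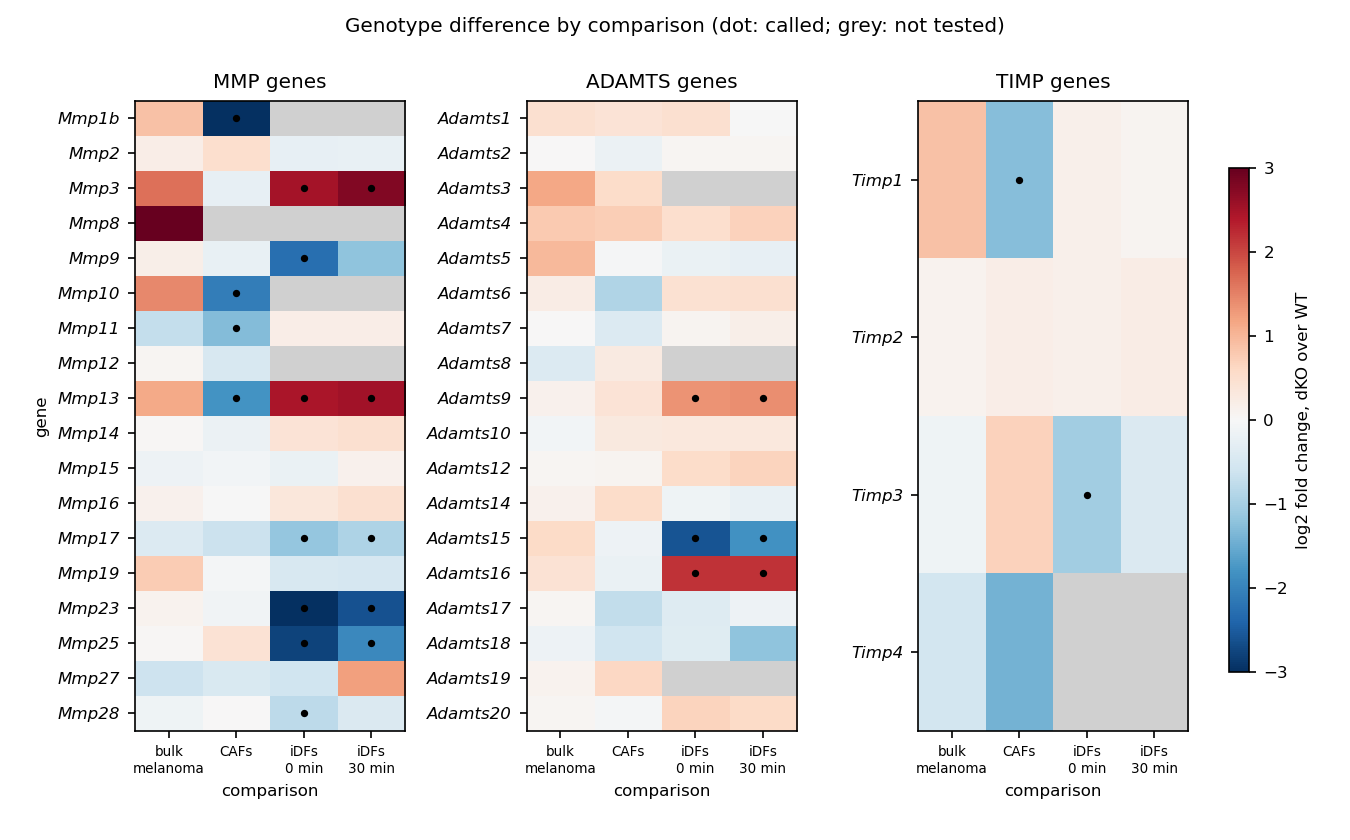
Log2 fold change of dKO over WT for each tested MMP, ADAMTS and TIMP gene (y axis) in bulk melanomas, CAFs, starved iDFs and iDFs after 30 min of serum (x axis), with red for higher and blue for lower in dKO, a dot for a called gene and grey for a gene not tested. The colours are capped at 3 in either direction, which Mmp8 in bulk melanomas (3.07) and Mmp1b in CAFs (-3.09) exceed, and Mmp13 is blue in CAFs and red in both iDF comparisons.

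In CD8+ T cells, 0 of 26 genes tested were called between dKO and WT by edgeR, beside 0.495% of all genes, 0 passed an unadjusted p under 0.05, beside 10.2% of all genes, and DESeq2 called 0, beside 3% of all genes. The genotypes overlapped for every one of the 26, where 7.05% of all genes did not overlap. Adamts10 had 108, 136, 142 and 137 CPM in dKO against 91.6, 121, 113 and 96.3 CPM in WT libraries (0.30, SE 0.14, adjusted p = 0.517). Adamts6 had 17.7, 15.5, 26.1 and 22.8 CPM in dKO against 11.4, 19, 18.1 and 14.3 CPM in WT (0.36, SE 0.25, adjusted p = 0.686). Both genes had reads in all 8 libraries.

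Timp1, Timp3 and Adamts2 varied widely among CD8+ T cell libraries of the same genotype. Timp1 had 0.351, 1.28, 5.37 and 4.52 CPM in dKO against 31.8, 0.52, 2.05 and 17.2 CPM in WT (-2.60, SE 1.17, adjusted p = 0.503). Timp3 had 5.7, 60.8, 114 and 109 CPM in dKO against 138, 0, 3.33 and 99.4 CPM in WT (0.03, SE 1.56). Adamts2, a procollagen-trimming enzyme made by fibroblasts, had 0.0439, 0.107, 4.81 and 1.68 CPM in dKO against 10.5, 0.104, 1.52 and 2.86 CPM in WT (-2.47, SE 1.43, adjusted p = 0.615). The fibroblast markers ranged over the libraries as given above, and their part in these values was not tested. Timp2 stayed between 3.59 and 11 CPM in all 8 libraries (-0.41, SE 0.33).

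In starved iDFs, 4 of 32 genes tested were called higher and 7 lower in dKO, beside 9.04% of all genes called, and the median log2 fold change was 0.07. After 30 min of serum, 4 were called higher and 4 lower, beside 8.96% of all genes, with a median of 0.10. The libraries of the 2 times are separate. DESeq2 called 4 higher and 4 lower at 0 min, beside 7.01% of all genes, and 4 higher and 3 lower at 30 min, beside 6.9% of all genes. Without overlap between the genotypes at 0 min, 14 were higher and 14 lower in dKO, but with 2 libraries a group the same held for 69.3% of all genes.

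Higher in dKO iDFs were Adamts9, Adamts16, Mmp3 and Mmp13, at both times. Adamts9, which cleaves versican and aggrecan, had 173 and 194 CPM in dKO against 69.5 and 73.5 CPM in WT iDFs at 0 min (1.36, SE 0.11, edgeR adjusted p = 0.000164), and 199 and 224 CPM in dKO against 72.3 and 88.5 CPM in WT at 30 min (1.40). Adamts16 had 22.7 and 18.3 CPM in dKO against 5.52 and 3.59 CPM in WT at 0 min (2.16, SE 0.19, adjusted p = 0.000109), and 23.7 and 20.5 CPM in dKO against 4.95 and 4.85 CPM in WT at 30 min (2.17). The genotypes lay far apart for both genes at both times, relative to the spread within a pair of libraries.

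Mmp3 and Mmp13 were called higher in dKO iDFs from a low level. In WT iDF libraries, Mmp3 had only 9 and 12 reads at 0 min and 8 and 9 at 30 min. For Mmp13 the WT reads were 10 and 6 at 0 min and 8 and 7 at 30 min. Mmp3 had 2.04 and 2.7 CPM in dKO against 0.336 and 0.507 CPM in WT at 0 min (2.49, SE 0.31, edgeR adjusted p = 0.000347), and 2.62 and 2.45 CPM in dKO against 0.342 and 0.387 CPM in WT at 30 min (2.79). Mmp13 had 1.5 and 2.02 CPM in dKO against 0.373 and 0.253 CPM in WT at 0 min (2.45, SE 0.34, adjusted p = 0.000642), and 2 and 1.74 CPM in dKO against 0.342 and 0.301 CPM in WT at 30 min (2.52). Mmp13 thus differed between the genotypes in the opposite direction from that in CAFs (-1.80), where it was expressed at 94.3 CPM or more in every WT library. Mmp1b and Mmp10 were too low to test in iDFs.

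Lower in dKO iDFs at both times were Mmp23, Mmp17, Adamts15 and Mmp25. Mmp23, an MMP anchored in the membrane by its amino-terminal end, had 2.26 and 2.7 CPM in dKO against 20.2 and 19.5 CPM in WT at 0 min (-3.00, SE 0.12, edgeR adjusted p = 6.89e-07), and 2.93 and 3.3 CPM in dKO against 18.5 and 19.5 CPM in WT at 30 min (-2.61, adjusted p = 1.37e-06). The same gene had nearly equal means in CAFs, 44.8 ± 5.42 CPM in dKO and 48.4 ± 4.17 CPM in WT (-0.11, SE 0.08). Mmp17 had 11.1 and 9.93 CPM in dKO against 23.3 and 23.6 CPM in WT at 0 min (-1.15, SE 0.09, adjusted p = 2.88e-05), and 11.5 and 10 CPM in dKO against 20.8 and 20.3 CPM in WT at 30 min (-0.93). Adamts15, a versican-cleaving enzyme, had 0.796 and 1.26 CPM in dKO against 5.64 and 6.71 CPM in WT at 0 min (-2.59, SE 0.39, adjusted p = 0.00159), and 0.391 and 1.1 CPM in dKO against 3.12 and 2.1 CPM in WT at 30 min (-1.82, SE 0.44, adjusted p = 0.0143).

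The low genes Mmp25, Mmp9 and Mmp28 completed the calls at 0 min and were not called by DESeq2. Mmp25 had 0.0319 and 0.108 CPM in dKO against 0.523 and 0.464 CPM in WT (-2.78, SE 0.66, edgeR adjusted p = 0.0111), and at 30 min 0.0783 and 0.254 CPM in dKO against 0.598 and 0.687 CPM in WT (-1.94, SE 0.57, adjusted p = 0.0293). Mmp9, gelatinase B, had 0.191 and 0.108 CPM in dKO against 0.859 and 0.633 CPM in WT at 0 min (-2.27, SE 0.61, adjusted p = 0.02), and Mmp28 had 1.31 and 1.48 CPM in dKO against 2.28 and 2.49 CPM in WT (-0.78, SE 0.24, adjusted p = 0.0386). Neither gene was called at 30 min, when Mmp9 had 0.235 and 0.169 CPM in dKO against 0.213 and 0.73 CPM in WT (-1.20) and Mmp28 had 1.88 and 1.27 CPM in dKO against 2.01 and 2.23 CPM in WT (-0.42). Adamts12, with 39 and 39 CPM in dKO against 26.8 and 26.2 CPM in WT at 0 min (0.56, adjusted p = 9.52e-05), passed the p threshold at both times and not the fold threshold.

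Of the inhibitors, Timp3 was called lower in starved dKO iDFs, with 423 and 442 CPM against 909 and 887 CPM in WT (-1.05, SE 0.06, edgeR adjusted p = 4.07e-06). After serum it had 729 and 822 CPM in dKO against 1062 and 1021 CPM in WT (-0.43, SE 0.06, adjusted p = 0.000578), under the fold threshold. Timp1 had 29.2 and 25.6 CPM in dKO against 25.7 and 23.4 CPM in WT at 0 min (0.16, SE 0.10), and Timp2 681 and 762 CPM in dKO against 628 and 661 CPM in WT (0.16, SE 0.08). Neither was called at either time, and Timp4 was too low to test.

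**Figure D5:**
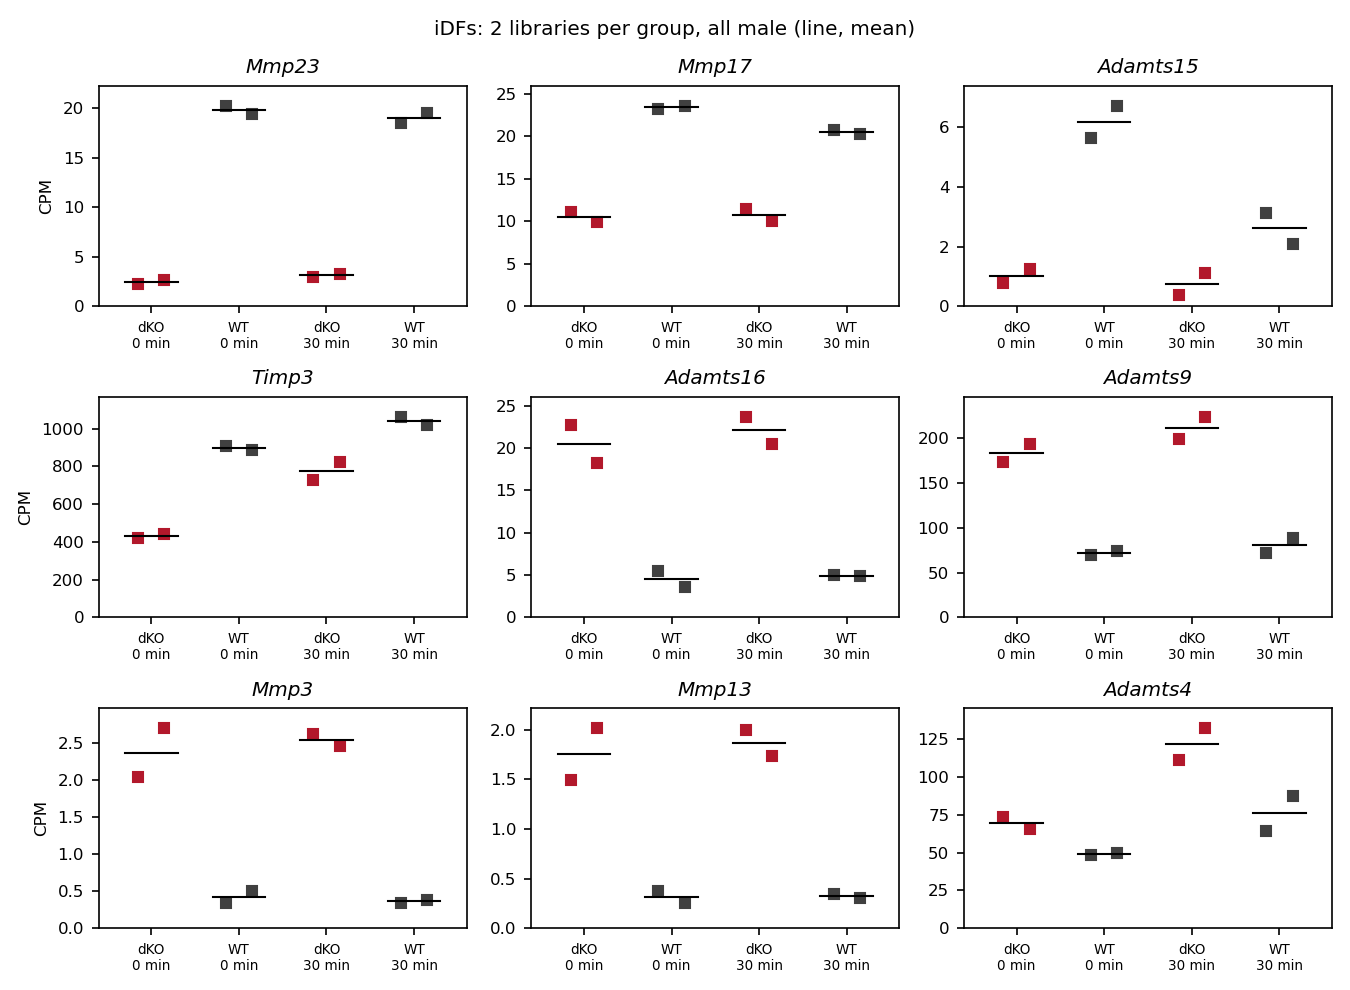
CPM (y axis, from 0) of 9 genes in single iDF libraries, with dKO in red left of WT in dark grey at 0 min and then at 30 min of serum (x axis), 2 libraries per group, all male, and the group mean as a line. Mmp23, Mmp17 and Timp3 lie lower and Adamts16, Adamts9, Mmp3 and Mmp13 higher in dKO than in WT libraries at both times, and the interaction test called none of them.

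Limits of the iDF calls concerned the low genes. Leaving out each of the 8 iDF libraries in turn, Mmp25 lost its call at 0 min without WT 1 or dKO 1 of that time (adjusted p = 0.0678 and 0.0922), Mmp9 without any of the 4 libraries at 0 min (0.0556 to 0.122), and Mmp28 in 6 of 8 fits (up to 0.165). At 30 min, Adamts15 lost its call without WT 1 of that time (0.0852) and Mmp25 in 5 of 8 fits (up to 0.173).

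The serum comparison asked which of these genes respond within 30 min, when immediate-early genes rise. In dKO iDFs, 2 of 32 genes were called higher at 30 min and 0 lower, beside 3.28% of all genes. Timp3 averaged 776 ± 65.3 CPM at 30 min and 432 ± 13.6 CPM at 0 min in dKO iDFs (SD, n = 2 each), a log2 fold change of 0.84 (SE 0.06, edgeR adjusted p = 4.06e-05) that was called in 8 of 8 fits with 1 library left out. Adamts4 averaged 122 ± 15 CPM at 30 min (111 and 132) and 69.8 ± 5.77 CPM at 0 min (73.8 and 65.7), a log2 fold change of 0.80 (SE 0.16, adjusted p = 0.0346), called in 2 of 8 such fits, those without either WT library of 30 min, with adjusted p up to 0.188 in the other 6.

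In WT iDFs, 0 of 32 genes were called between 30 and 0 min by edgeR, beside 1.95% of all genes, with 3 higher and 4 lower at an unadjusted p under 0.05 (19.4% of all genes) and 0 called by DESeq2 (2.01% of all genes). Timp3 averaged 1041 ± 29.4 CPM at 30 min and 898 ± 15.7 CPM at 0 min (0.21, SE 0.06, adjusted p = 0.0713), and Adamts4 had 64.6 and 87.4 CPM at 30 min against 48.7 and 49.9 CPM at 0 min (0.62, SE 0.16, adjusted p = 0.106). The test of the difference between the genotypes in the serum effect called 0 of 32 genes, beside 0.0133% of all genes, with 3 higher and 1 lower at an unadjusted p under 0.05 (2.42% of all genes) and 0 called by DESeq2 (0.0465% of all genes). Timp3 had the smallest p of the 32 in this test, with an interaction of 0.63 on the log2 scale (SE 0.08, edgeR adjusted p = 0.104). DESeq2 gave it an adjusted p of 3.0e-08 at a fold change below the threshold.

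Related pathway genes were read from lists, and their counts stand beside the shares of all genes called, which were 5.48% in CAFs, 9.04% in starved iDFs, and 3.28% in dKO and 1.95% in WT iDFs after serum. Of the plasminogen activation genes, whose protease plasmin can activate MMP precursors, 0 of 10 were called in CAFs, with 3 positive and a median of -0.29. In starved iDFs, 2 of 9 were called higher in dKO, Plau (0.86), the urokinase gene, and Serpine2 (4.14), a protease inhibitor gene. Serum raised 4 of these genes in dKO iDFs, among them Plau (1.57) and Plaur (1.35), the urokinase receptor gene, and 3 in WT iDFs. Of the AP-1 and ETS factor genes, serum raised 6 of 9 in dKO iDFs, among them Fos (6.27) and Fosb (7.90), and 4 of 9 in WT iDFs, and 0 of 9 were called between genotypes in starved iDFs. The interaction test called 0 genes of either list, so a difference between the genotypes in these serum counts is not shown.

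Against the same shares of all genes, of 14 genes of matrix proteins that these enzymes cleave or process, Fbn2 (1.24) was called higher in dKO CAFs, and Acan (-1.44), the aggrecan gene, and Comp (-1.78), a cartilage matrix protein gene, were called lower. In starved iDFs, 1 of 11 was called higher in dKO and 3 were called lower, Eln (-2.50), the elastin gene, and the collagen IV genes Col4a1 (-1.61) and Col4a2 (-1.34). Among the ADAMTS-like genes, Adamtsl3 was called higher in dKO in CAFs (0.82) and in starved iDFs (1.90), where Adamtsl1 (-0.97) and Adamtsl2 (-2.16) were called lower. Of the ADAM family, 1 of 11 was called higher in CAFs, Adam33 (1.01), and 1 of 12 lower in starved iDFs, Adam12 (-0.87). Of 10 proprotein convertases and other regulators, Thbs1 (0.87) was called higher in CAFs, and in starved iDFs Pcsk6 (1.21) was called higher and Pcsk5 (-2.42) and Papln (-1.19) lower. In bulk melanomas and in CD8+ T cells, 0 genes of these 6 lists were called.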

How the data were processed

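Single-end RNA-seq libraries were mapped by the authors with Salmon 1.2.1 to Gencode transcripts of GRCm38.p6. The deposited file of each library gives an estimated count per transcript, not normalized and not whole, and TPM, which the authors' tool scales by transcript length and library total. The estimated counts of each gene were added up by Gencode release 21 for mouse, which held 139791 of 140992 transcripts (99.15%), and rounded. Transcripts without a gene held 0.25% to 0.52% of reads. TPM values were summed per gene to compare levels between genes and sources. CPM values divide counts by the TMM-scaled library size.

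Tests ran on the whole gene table in edgeR 4.0.16 (R 4.3.3; filterByExpr with a minimum count of 10, TMM, robust quasi-likelihood fit), with batch, sex and genotype for bulk melanomas, sex and genotype for CD8+ T cells and CAFs, 4 groups for iDFs and 1 fit of all WT groups for sources. p-values were adjusted by Benjamini-Hochberg over all genes tested, with thresholds of 0.05 and 0.75 (log2). Alternatives were DESeq2 1.42.0, other size factors, no filter on low counts, no fold threshold, no sex or batch term, dKO in place of WT libraries for sources, a replicate block in iDFs and leaving out each library. Scripts were tested on simulated counts with 200 changed genes. Groups came from the labels. Values named in full are genes called in any comparison, the 2 with the smallest p in each direction in each genotype comparison, the TIMP genes, and the 3 with the highest TPM in each source. The families, lists and naming rule were chosen with earlier results of these data known. Promoter sequences are from RefSeq (GRCm38.p6). Depth ran from 17526681 to 85432438 reads in genes per library. An SD is the spread between libraries. The SE of a log2 fold change is its size divided by the square root of the F statistic of edgeR's test. Some items of the mouse model and of the gene lists are not reported here.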

Additional observations from a re-analysis of the deposited data

Results flagged for a closer look

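Timp1 in WT bulk melanoma 5 stood at 146.85 CPM, with the next WT melanoma at 68.842 and the lowest at 32.1 CPM. Adamts10 in CD8+ T cell library dKO 1 stood at 108.01 CPM, below the other dKO libraries at 136.47 to 141.75 CPM. A library this far from its group is flagged by chance in about 1 of 20 groups, and 2 of 56 groups were flagged.

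For 4 genes the libraries of 1 experiment all moved one way and those of another the opposite way, without overlap between the genotypes in either, and the difference was not tested. Groups without overlap were found for 69.3% of all genes in starved iDFs, 14% in CAFs and 0.669% in bulk melanomas. The log2 fold change of dKO over WT was -1.805 in CAFs and 2.454 in starved iDFs for Mmp13, -0.9022 in CAFs and 0.4538 in starved iDFs for Adamts6, and -1.29 in CAFs and 0.1946 in starved iDFs for Mmp11. For Adamts5 it was 0.9637 in bulk melanomas and -0.2098 in starved iDFs.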

How the results depend on the processing

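The number of MMP, ADAMTS and TIMP genes called between dKO and WT was 0 in bulk melanomas and 3 with DESeq2. In CD8+ T cells it was 0, and 2 without a filter on low counts (Mmp19 and Timp1). It was also 0 without the library of each genotype with most fibroblast marker reads, an alternative chosen after seeing the data. In CAFs it was 5, against 3 without the filter, 0 without sex in the model, and 2 to 5 with 1 library left out. In starved iDFs it was 11, and 22 without a fold threshold, and after 30 min of serum it was 8, and 20 without a fold threshold. For serum in dKO iDFs it was 2, against 1 without the filter and 1 to 2 with 1 library left out. For serum in WT iDFs it was 0, against 1 without the filter (Adamts15) and 0 to 1 with 1 library left out. Between WT CAFs and WT starved iDFs it was 29, and 18 to 32 with 1 library left out, the lowest 2 being 18 and 19 without either WT library of 0 min. The cause of these changes was not tested.

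Replicate numbers of the iDF groups were not used to pair the samples. Correlations between same-numbered deviations were all positive, at 0.0728 to 0.267. With only 2 libraries a group, they cannot tell whether the numbers mark pairs. With a replicate block the counts were 11 in starved iDFs, 8 after serum, 2 and 0 for serum in dKO and WT iDFs, and 0 for the interaction, the same as without it. The other experiments had no paired fit, since replicate numbers there name separate mice. Of 518 alternative values for 38 single-gene results, 451 kept their direction and side of the threshold, 57 lost the call, 10 gained it and 0 reversed. Low counts limit Mmp8, Mmp9, Mmp25 and Mmp28, and also Mmp3 and Mmp13 in iDFs.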

Other observations

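Mmp1a, the neighbouring collagenase gene that the annotation lists as a polymorphic pseudogene, is a close copy of Mmp1b, and reads may be split between them. It had 77.2, 72.6, 2.2 and 14.8 CPM in dKO CAFs 1 to 4 against 397, 452, 73.2 and 129.9 CPM in WT CAFs 1 to 4 (log2 fold change -3.01, SE 0.53, edgeR adjusted p = 0.015, n = 4 each), with dKO 1 above WT 3 and the genotypes separate within each sex. In bulk melanomas its log2 fold change was -0.27 (SE 1.07, adjusted p = 0.962).

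The genes whose female and male means differed by more than 0.75 on the log2 scale in both genotypes of CAFs are given as a description of 2 females and 2 males each. The log2 ratio of female over male means was -2.83 in dKO and -1.94 in WT CAFs for Mmp1b, -2.58 in dKO and -1.88 in WT for Mmp10, -1.45 in dKO and -2.81 in WT for Mmp9, -0.96 in dKO and -0.77 in WT for Mmp28, -1.79 in dKO and -0.99 in WT for Timp1, and -1.25 in dKO and -0.86 in WT for Timp3. For Adamts16 it was 0.80 in dKO and 1.00 in WT.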
